A study of Mus musculus with 6 samples.

Results

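The livers of mice injured by a fatty diet were set against the livers of mice injured by carbon tetrachloride (CCl4), gene by gene, to find which changes the injuries had in common, which belonged to 1 of them and which ran in opposite directions. The contrast used 4 of the 6 libraries of the series, and 13952 of the 17950 genes listed in those 4 libraries had at least 10 counts in at least 1 of them. All the mice were males of strain C57BL/6, 6 to 8 weeks old per the labels, and the study's methods give the strain as C57BL/6J, groups of 6 mice and a fast of 8 h before the livers were taken. The CD library came from control mice labelled as fed chow, and the HFD library from mice kept on a high-fat diet, with 16 weeks of feeding per the methods and the label NASH (nonalcoholic steatohepatitis). The Oil library came from mice injected with corn oil, and the CCl4 library from mice injected with 20% CCl4 in corn oil, at 5 ml/kg every 3 days for 6 weeks, with the label liver fibrosis. After 16 weeks of feeding the HFD mice were older than the 6 to 8 weeks given. The age at collection is not stated, and the models may have differed in it. The number of mice behind each library and the time of day of collection are not stated. The methods name a purified standard diet for the diet controls, and also describe a model in which a diet lacking methionine and choline was added. The labels do not settle which was sequenced. A figure legend of the study names mice on the standard diet, HFD or HFD with JT003 for the RNA sequencing.

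A fatty diet loads hepatocytes with lipid over months, and their response involves lipid sensors such as PPARα, a nuclear receptor that turns on fatty acid oxidation genes during fasting. CCl4 is converted to a reactive radical by cytochrome P450 enzymes, mostly Cyp2e1, in the hepatocytes around the central vein, which die and are replaced by division of surviving cells. Repeated injury of either kind can activate stellate cells to lay down collagen and can draw in macrophages.

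For each of the 4 conditions 1 separate RNA library was available, read on the BGISEQ-500 platform. Rounded expected counts, the authors' estimates of the reads of each gene, summed to 20184557 in CD, 19724517 in HFD, 19409752 in Oil and 20156841 in CCl4. The labelled tissue fitted its markers, since all 12 listed hepatocyte genes were read in each library and Alb, which encodes albumin, took 5.29% to 7.55% of the counts. With 1 separate library per condition the spread between replicates could not be estimated, and each test compared libraries, not conditions. The remaining CCl4 counts, described below, gave a check of the CCl4 side alone. Library sizes were scaled by TMM factors, and the change with diet (HFD over CD) and the change with CCl4 (CCl4 over Oil) are log2 ratios with a prior count of 2. Calls needed an adjusted p under 0.001 in a two-sided exact conditional binomial test, with Benjamini-Hochberg adjustment over the 13952 genes, and a log2 ratio of 1 or more in size. The difference between the changes was tested for each gene with an exact conditional test of its 4 counts, with the same adjustment and thresholds. Intervals are 95% Clopper-Pearson intervals or, for a difference, exact conditional ones, and they cover counting error only.

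Most called genes were called with 1 injury alone, which by itself does not show that the injuries differed. With diet, 506 genes (3.63% of those tested) were called higher and 412 (2.95%) lower, and with CCl4 828 (5.93%) were called higher and 420 (3.01%) lower, or 1242 and 273 with total reads as library size. Of the 1923 genes called with either injury, 243 were called with both. Changes in the same direction numbered 152, of which 83 genes (0.595% of those tested) were higher with both injuries, here called common higher, and 69 (0.495%) were common lower. Another 91 genes moved in opposite directions: 54 (0.387%) were higher with diet and lower with CCl4, and 37 (0.265%) were lower with diet and higher with CCl4. In edgeR's exact test with an assumed coefficient of variation of 0.2, these classes numbered 10, 10, 15 and 2 in this order. With 0.4 they numbered 1, 1, 2 and 0. The common higher genes made up 16.4% of the genes higher with diet and 10.02% of those higher with CCl4. Of all tested genes, 5.93% were higher with CCl4 and 3.63% with diet. The common lower genes made up 16.7% and 16.4% of the genes lower with diet and CCl4, against 3.01% and 2.95% of all tested genes. For the genes higher with diet and lower with CCl4 the shares were 10.7% and 12.9%, against 3.01% and 3.63%. For those with the reverse pattern they were 8.98% and 4.47%, against 5.93% and 2.95%.

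A change was taken as specific to an injury only where the gene was not called with the other injury and the difference between the changes passed its own test, as it did for 1511 genes (10.8%). By this rule 210 genes (1.51%) were diet-specific higher, 171 (1.23%) diet-specific lower, 319 (2.29%) CCl4-specific higher and 176 (1.26%) CCl4-specific lower. A further 294 genes were called with diet alone and 510 with CCl4 alone without passing the test of the difference, so they are not assigned to either injury. Across the 13952 genes, which are not independent replicates, the changes had a Pearson correlation of 0.081 and a Spearman correlation of 0.079, or a Pearson correlation of 0.176 with the remaining CCl4 counts described next, and 52.1% of genes had the same sign in both. The injuries shared no library, and their ratios were weakly correlated.

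A table of the authors also holds a CCl4 column that appears to sum the counts of several libraries, this CCl4 library among them, and subtracting it left 39780178 counts of CCl4 libraries that are not named. Set against the same Oil library, these remaining CCl4 counts kept 63 of the 83 common higher and 63 of the 69 common lower genes in their class, 41 of the 54 genes higher with diet and lower with CCl4, 25 of the 37 with the reverse pattern, 263 of the 381 diet-specific and 325 of the 495 CCl4-specific genes. The common lower class grew to 127 genes there, and the CCl4-specific class to 599. Each class thus depended in part on the single CCl4 library.

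**Figure D1:**
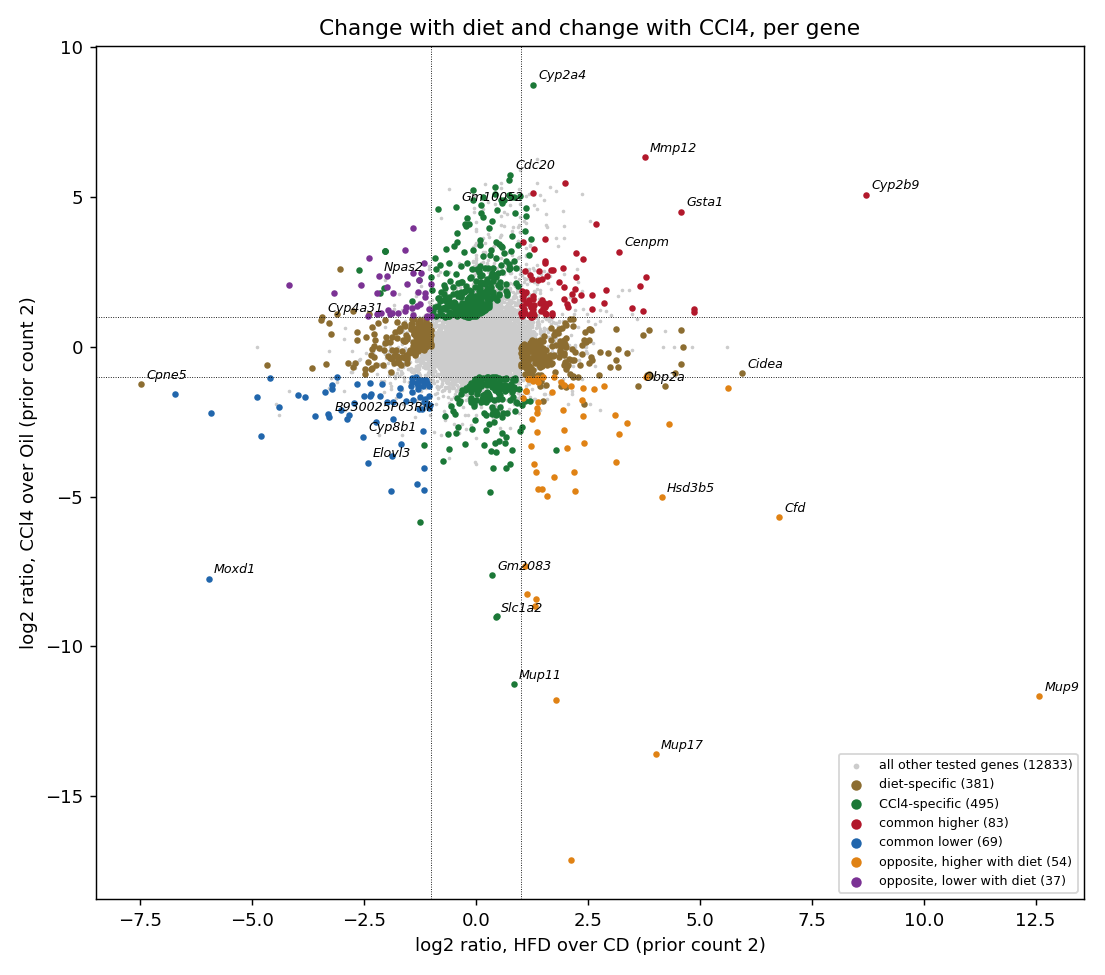
Each point is a gene, with its log2 ratio of HFD over CD on the x axis and of CCl4 over Oil on the y axis (prior count 2), coloured by class, and dotted lines mark absolute log2 ratios of 1. The 83 common higher and 69 common lower genes lie in the upper right and lower left corners, and the 54 and 37 genes with opposite changes in the other corners.

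Fibrillar collagen genes were among the leading common higher genes. Col1a1, which encodes the main chain of type I collagen, had 178 counts in CD and 899 in HFD, and 231 in Oil and 2483 in CCl4. Both injured libraries were above both controls, by a log2 ratio of 2.24 with diet (interval 2.02 to 2.49) and 3.13 with CCl4 (2.94 to 3.34). Col3a1, a chain of the type III collagen that forms fine fibres, had 352 and 1449 counts in CD and HFD and 291 and 2214 in Oil and CCl4, a rise of 1.95 (1.79 to 2.13) and 2.63 (2.46 to 2.82). The difference between the injuries was -0.89 for Col1a1 (-1.20 to -0.57) and -0.68 for Col3a1 (-0.93 to -0.43), under the threshold of 1 in size.

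The matrix and myofibroblast list shows how far this agreement in direction went. Of its 33 tested genes, 11 were called higher with diet and 11 with CCl4, none lower with either, and 18 were called with neither. Among those 18 were Acta2, Tagln, Des, Pdgfrb, Pdgfra and Vim, which were not called in the remaining CCl4 counts either. The medians of the list were 0.63 and 0.70, against 0.01 with either injury over all genes. The CCl4 median of the list was 1.29 in the remaining CCl4 counts. Over all tested genes 3.63% were called higher and 2.95% lower with diet, and 5.93% and 3.01% with CCl4. The counts of called genes in every list below are to be read beside these shares, and 1 call in a short list says little about the list. Common higher were Col1a2, Col5a2, Col6a3, the matrix metalloprotease gene Mmp12 and Thbs1, a matrix glycoprotein that can activate TGF-β, beside Col1a1 and Col3a1. Thbs1 changed more with diet, with 18 and 125 counts in CD and HFD and 22 and 67 in Oil and CCl4 (2.59 and 1.25), although the difference of 1.34 (0.31 to 2.48) did not pass its test. Postn, which encodes the matrix protein periostin, was diet-specific, at 58 and 237 counts in CD and HFD (1.91) and 83 and 157 in Oil and CCl4 (0.62), but in the remaining CCl4 counts it was common higher (1.28 over Oil). Summed over the list the counts were 48051 in CD, 50263 in HFD, 26034 in Oil and 50738 in CCl4, with Fn1 the most abundant, so that the Oil library was the low one and the sum hardly differed between CD and HFD.

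Some genes expressed by macrophages were also common higher. Mmp12, a protease made by macrophages, had 9 counts in CD, 156 in HFD, 0 in Oil and 175 in CCl4, a log2 ratio of 3.77 (3.07 to 5.19) with diet and a count at least 47.8-fold higher with CCl4, taking 3 counts for the 0. Gpnmb, a glycoprotein of lysosome-rich macrophages, had 33 and 144 counts in CD and HFD and 14 and 843 in Oil and CCl4 (1.98 and 5.45), and its rise was larger with CCl4 by a difference that passed the test (-3.47, interval -4.63 to -2.59). Cx3cr1, the receptor for the chemokine fractalkine, went from 14 to 59 with diet (1.85, interval 1.13 to 2.95) and from 20 to 118 with CCl4 (2.17, 1.58 to 3.04). Ccr2, a chemokine receptor of recruited monocytes, and Itgax, which encodes CD11c, were the other macrophage-list genes called with both, at 1.57 and 1.39 for Ccr2 and 1.48 and 2.25 for Itgax.

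The rest of the macrophage list separated the injuries, and the controls with them. Of 18 tested markers, 3 were higher and 1 lower with diet, and 14 were higher with CCl4, with medians of 0.07 and 1.59, the latter 2.25 in the remaining CCl4 counts. Summed counts of the list were 9408 in CD, 9627 in HFD, 2635 in Oil and 8984 in CCl4, with Cd5l the most abundant over all 4 libraries, Cd9 the most abundant in Oil and CCl4, and no marker at 0 in any library. The CCl4 library thus stood near the level of CD and HFD, and the Oil library stood below the other 3. Adgre1, which encodes the macrophage marker F4/80, had 290, 356, 24 and 191 counts in CD, HFD, Oil and CCl4. Clec4f and Timd4, markers of resident Kupffer cells, had 413 and 19 counts in Oil and 517 and 18 in CCl4, and were not called, against 1418 and 110 in CD and 1466 and 96 in HFD. Timd4 was called higher than in Oil in the remaining CCl4 counts (1.44). In whole liver, fewer cells of a type and less RNA per cell cannot be told apart, and the part of the low Oil level in the changes with CCl4 was not tested.

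Of 12 p53 targets, 3 were common higher, Eda2r, Phlda3 and Gdf15, and 6 were called with neither injury. In all, 5 were higher and 1 lower with diet and 4 were higher with CCl4 (medians 0.66 and 0.68, the latter 1.40 in the remaining CCl4 counts). Gdf15, a secreted stress hormone, had 115 and 324 counts in CD and HFD and 115 and 661 in Oil and CCl4 (1.40 and 2.22). Eda2r, a receptor of the TNF receptor family, had 7, 59, 3 and 98 counts in CD, HFD, Oil and CCl4 (2.69 and 4.10). Atf3, a transcription factor from another list, the integrated stress response, was also common higher and had 38 and 122 counts in CD and HFD (1.55) and 15 and 248 in Oil and CCl4 (3.61). Cdkn1a, the cell cycle inhibitor p21, went the opposite way with diet, and its values follow with the opposite genes.

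Cyp2b9 and Gsta1 ranked first among the common higher genes. Cyp2b9, a cytochrome P450 with female-biased expression in liver, had 0 counts in CD, 856 in HFD, 1 in Oil and 113 in CCl4, which is at least 269-fold higher with diet and a log2 ratio of 5.07 (4.03 to 11.85) with CCl4. Gsta1, a glutathione transferase gene, had 1 and 73 counts in CD and HFD (4.59, interval 3.58 to 11.43) and 64 and 1821 in Oil and CCl4 (4.51, 4.18 to 4.93). Both belong to families of near-identical genes among which reads are split, so their counts are uncertain. The HFD count of Gsta1 was close to that of Oil, so the levels of the injured libraries differed widely. The ratios were near each other, but with 1 count in CD their difference had an interval of -1.01 to 6.91.

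Further named common higher genes had varied roles. Hsd17b6, a steroid and retinol dehydrogenase, had 584 and 3237 counts in CD and HFD (2.38, 2.26 to 2.52) and 557 and 5179 in Oil and CCl4 (2.92, 2.80 to 3.06). Bcl6, a transcriptional repressor, rose from 94 to 1281 counts with diet (3.66, 3.38 to 4.003) and from 252 to 1260 with CCl4 (2.03, 1.84 to 2.23). Rgs16, which dampens G protein signalling, rose from 73 to 1102 with diet (3.80, 3.49 to 4.20) and from 122 to 750 with CCl4 (2.31, 2.06 to 2.62). For Bcl6 the injured libraries ended at similar counts, and for Rgs16 HFD ended above CCl4, by a log2 ratio of 0.6. For both genes the rise was larger with diet by a difference that passed the test, 1.63 (1.28 to 2.03) for Bcl6 and 1.48 (1.05 to 1.96) for Rgs16. The last named were Cenpm, a centromere protein gene, at 2, 36, 17 and 205 counts in CD, HFD, Oil and CCl4, and Fam81a at 13, 73, 17 and 113.

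Moxd1, Cyp8b1 and Elovl3 ranked first among the common lower genes. Cyp8b1, the sterol 12α-hydroxylase that makes cholic acid, had 20532 counts in CD and 3772 in HFD, and 19408 in Oil and 2950 in CCl4. The controls were near each other, and the gene changed by -2.53 with diet (-2.58 to -2.48) and -3.005 with CCl4 (-3.06 to -2.95). Elovl3, an elongase of very long fatty acids with male-biased expression, went from 14013 to 2775 counts with diet and from 8783 to 731 with CCl4, and fell by 2.42 and 3.87. Its fall was larger with CCl4, by a difference of 1.45 (1.33 to 1.58) that passed the test.

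Moxd1, a copper-binding monooxygenase-like gene, nearly vanished in both injured livers, with 950 counts in CD, 14 in HFD, 383 in Oil and 0 in CCl4. It fell by 5.97 with diet (-7.05 to -5.41) and was at least 156-fold lower with CCl4. Cidec, a protein that fuses lipid droplets, had 5423 and 802 counts in CD and HFD (-2.84) and 1987 and 503 in Oil and CCl4 (-2.26). Asns, the asparagine synthetase gene, had 205 and 16 counts in CD and HFD (-3.60) and 590 and 142 in Oil and CCl4 (-2.33). Tff3, a trefoil peptide of mucous epithelia, went from 194 to 19 with diet and from 217 to 54 with CCl4.

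The common fall of Cyp17a1, a steroid hydroxylase and lyase, did not hold in the remaining CCl4 counts. It had 786 and 101 counts in CD and HFD (-3.02) and 646 and 180 in Oil and CCl4 (-2.12). In the remaining CCl4 counts Cyp17a1 had a log2 ratio of 0.04 over the same Oil library. Gm15441, an RNA antisense to Txnip whose reads may include those of the opposite strand, changed by -5.93 with diet and -2.203 with CCl4, from 5570 to 95 and from 723 to 190 counts. Cyp2c40, Cgref1, Npnt and B930025P03Rik were the others named, with 40, 10, 203 and 18 counts of Cyp2c40, 654, 31, 204 and 60 of Cgref1, 117, 17, 65 and 20 of Npnt and 190, 19, 180 and 42 of B930025P03Rik in CD, HFD, Oil and CCl4.

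The hepatocyte zone lists held 2 common lower genes, Asl of the urea cycle (-1.70 with diet and -1.37 with CCl4) and Oat, an ornithine aminotransferase (-1.17 and -4.78). For Oat the counts were 30312 in CD, 14297 in HFD, 31746 in Oil and 1413 in CCl4, so that the fall was far larger with CCl4 (difference 3.61, interval 3.53 to 3.69). In the list of 12 periportal hepatocyte genes, which holds Asl, 1 was higher and 2 lower with diet and 3 were lower with CCl4, with medians of -0.64 and -0.38, but Sds and Tat were not called with total reads or in the remaining CCl4 counts. Cps1, the first enzyme of the urea cycle, fell with diet from 72063 to 34490 counts (-1.15) and had a ratio of -0.54 with CCl4, without a difference past the threshold.

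**Figure D2:**
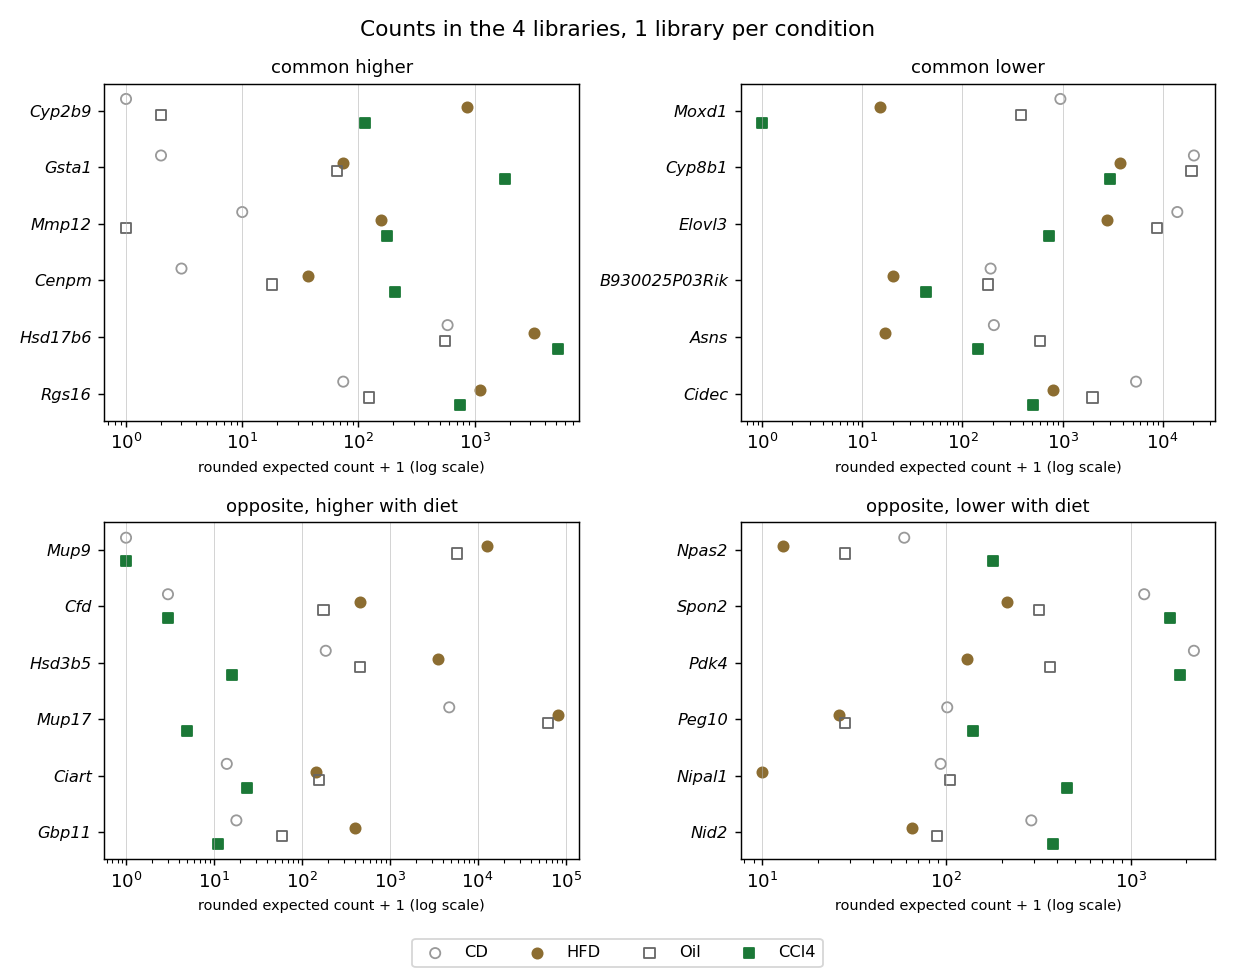
Rounded expected counts plus 1, on a log scale, of the first 6 named genes of each class in the 4 libraries, with controls as open and injured livers as filled symbols, circles for the diet libraries and squares for the CCl4 libraries. Filled symbols lie right of open ones in the common higher panel and left of them in the common lower panel for each library pair, and for Cfd, Hsd3b5 and Ciart the CCl4 and CD libraries lie at the low end with Oil above CD.

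Major urinary protein genes gave the largest opposite changes, higher with diet and lower with CCl4. Reads of the whole Mup family summed to 1230520 in CD (6.10% of counts), 2448545 in HFD (12.4%), 2039343 in Oil (10.5%) and 154826 in CCl4 (0.768%). The family was lowest with CCl4 and highest with diet, and its share in the Oil control lay nearer to HFD than to CD. Single members are nearly identical in sequence, so the split of reads among them is uncertain. Mup9 was listed at 0, 12624, 5801 and 0 in CD, HFD, Oil and CCl4, at least 3971-fold higher with diet and at least 2360.3-fold lower with CCl4, and Mup15 had 45274, 208664, 260453 and 0 counts. Mup17 had 4751, 81292, 63156 and 4 counts and Mup6 had 36, 182, 105 and 5. Without the Mup genes, a choice made after the data were seen, 42 of the 54 genes higher with diet and lower with CCl4 were left.

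In the male-biased list 2 genes moved the same way as the Mup family. Hsd3b5, a steroid-reducing enzyme found in male mouse liver, had 186 counts in CD, 3521 in HFD, 454 in Oil and 15 in CCl4, a rise of 4.15 with diet (3.95 to 4.38) and a fall with CCl4 (-5.02, interval -6.06 to -4.47). Selenbp2, a selenium-binding protein, had 2944 and 12194 counts in CD and HFD (1.97) and 6045 and 1072 in Oil and CCl4 (-2.78). Over the 11 tested male-biased genes, 2 were higher and 2 lower with diet and 10 were lower with CCl4, with medians of -0.24 and -3.22, the latter -2.58 in the remaining CCl4 counts. The fall with CCl4 was thus shared by nearly the whole list, and a change with diet was not. CCl4-specific falls were those of Cyp4a12a, Cyp2d9, Cyp7b1, Slco1a1, Mup20 and Ugt2b38, and Cyp7b1, an oxysterol hydroxylase, had 8190 and 5182 counts in CD and HFD (-0.74) and 4673 and 400 in Oil and CCl4 (-3.83).

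Transcripts of the growth hormone axis were read beside the male-biased list. Growth hormone acts on liver through its receptor and STAT5, and of 11 genes of this axis 2 were higher and 2 lower with diet and 2 lower with CCl4 (medians 0.12 and -0.65). Socs2 and Cish, feedback inhibitors that STAT5 turns on, were CCl4-specific lower, at 533 and 295 counts in Oil and CCl4 for Socs2 (-1.14) and 358 and 142 for Cish (-1.61), although with total reads as library size Socs2 was not called. Ghr, the growth hormone receptor, was diet-specific higher, at 4315 and 9856 counts in CD and HFD (1.11) and 4758 and 4336 in Oil and CCl4. Of 7 tested female-biased genes, 2 were higher and 1 lower with diet, and 3 were higher and 1 lower with CCl4, with medians of 1.27 and 0.63, the latter 3.95 in the remaining CCl4 counts. Cyp2a4, which shares reads with Cyp2a5, had 2, 8, 0 and 943 counts in CD, HFD, Oil and CCl4, at least 258-fold higher with CCl4. It was CCl4-specific higher, but did not pass the test of the difference in the remaining CCl4 counts.

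Some genes of the circadian clock were in an opposite class, 3 of 10 in the phase of Dbp and 2 of 5 in the phase of Bmal1. Over all tested genes the shares of these opposite classes were 0.387% (higher with diet) and 0.265% (lower with diet). Dbp, a transcription factor with a strong daily rhythm in liver, had 398 counts in CD, 1738 in HFD, 824 in Oil and 96 in CCl4, a rise of 2.04 with diet and a fall by 3.36 with CCl4. Ciart, a repressor of the clock, had 13 and 143 counts in CD and HFD (3.20, interval 2.56 to 4.32) and 155 and 23 in Oil and CCl4 (-2.93, -3.74 to -2.40). Of 10 genes that peak with Dbp, 4 were higher with diet and 6 lower with CCl4, with medians of 0.77 and -1.16, and 9 of the 10 had opposite signs. Of 5 genes in the phase of Bmal1, whose gene is named Arntl here, 2 were lower with diet and 3 higher with CCl4, with medians of -0.55 and 1.15. Nfil3 of the Bmal1 phase and Nr1d2 of the Dbp phase lost their calls in the remaining CCl4 counts, and Nr1d2 did so with total reads too. Arntl itself had 195, 46, 142 and 386 counts in CD, HFD, Oil and CCl4 (-2.12 and 1.15), and its partner Npas2 had 58, 12, 27 and 179 (-2.18 and 2.37). The other members were called with 1 injury or neither. As the hour of collection is not given, injury and time of day cannot be told apart.

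Several further genes were higher with diet and lower with CCl4. Cfd, which encodes the complement protease adipsin and is made mostly by fat cells, had 2 counts in CD, 454 in HFD, 175 in Oil and 2 in CCl4, or 6.77 with diet (5.88 to 10.79) and -5.68 with CCl4 (-9.80 to -4.86). Adipoq, the adiponectin gene and a defining marker of fat cells, was at 0 in CD and HFD, 11 in Oil and 1 in CCl4, and Plin1 was at 1, 1, 6 and 0. Over the 6 adipocyte markers listed in the files, counts summed to 2853, 40179, 9761 and 15346, nearly all of it Car3, a carbonic anhydrase also found in liver. The HFD library thus held Cfd at 454 counts with Adipoq at 0, and the Oil library held both.

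The remaining named genes with this pattern had varied roles. Upp2, a uridine phosphorylase of liver, had 308, 3399, 3731 and 784 counts in CD, HFD, Oil and CCl4 (3.37 and -2.54). Cyp2a5, a coumarin hydroxylase whose reads are shared with Cyp2a4, had 670, 6101, 4395 and 1108 (3.10 and -2.27). For both genes the Oil and HFD libraries were the high ones and the CD and CCl4 libraries the low ones. Aatk, a kinase gene, had 90, 510, 130 and 30 counts, and Serpina4-ps1, a serpin pseudogene, had 886, 4387, 1793 and 75. Gbp11, of the interferon-inducible guanylate-binding proteins, which have close copies, had 17, 397, 58 and 10.

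The controls were far apart for most of these genes. CD and Oil differed at least 2-fold for 40 of the 54 genes (74.1%), all 40 higher in Oil, against 11.4% of all tested genes, with a median log2 ratio of CD over Oil of -1.42. The injured livers differed more, with a median log2 ratio of HFD over CCl4 of 3.23. Among the 37 genes lower with diet and higher with CCl4, 19 (51.4%) differed at least 2-fold between the controls, all 19 higher in CD, and the medians were 1.04 and -2.38. Among the common higher genes the controls differed at least 2-fold for 25 of 83 (30.1%) and among the common lower genes for 18 of 69 (26.1%). For the CCl4-specific genes this held for 104 of 319 higher (32.6%), 97 of them higher in CD. It held for 41 of 176 lower (23.3%), 36 of them higher in Oil. Diet-specific genes had 56 of 210 higher (26.7%), 55 of them higher in Oil, and 49 of 171 lower (28.7%), 48 of them higher in CD. The opposite and specific classes require a difference between the changes, which selects genes whose controls differ in these directions. These shares thus describe the classes and test nothing.

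The genes named among the 37 lower with diet and higher with CCl4 had varied roles. Pdk4, the kinase that blocks pyruvate dehydrogenase in fasting, had 2207 counts in CD, 128 in HFD, 364 in Oil and 1849 in CCl4, a log2 ratio of -4.17 with diet (-4.46 to -3.93) and 2.05 with CCl4 (1.89 to 2.22). Cdkn1a had 828 and 295 counts in CD and HFD (-1.57, interval -1.77 to -1.38) and 1050 and 3208 in Oil and CCl4 (1.32, 1.22 to 1.43). The controls were close for Cdkn1a and far apart for Pdk4, whose CD and CCl4 levels were alike. Nek2, a mitotic kinase, had 136, 47, 84 and 981 counts in CD, HFD, Oil and CCl4 (-1.58 and 3.23).

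Nid2, Spon2 and Tubb2a were further members of this class. Nid2, a basement membrane protein, had 288 and 64 counts in CD and HFD (-2.22) and 88 and 378 in Oil and CCl4 (1.79). Spon2, a secreted matrix protein, had 1185, 211, 316 and 1626 counts in CD, HFD, Oil and CCl4 (-2.56 and 2.07), and Tubb2a, a β-tubulin with a close copy, had 1924, 560, 1239 and 5248 (-1.86 and 1.79). Nid2 fell with diet while the fibrillar collagen genes Col1a1 and Col3a1 rose. Peg10, an imprinted gene, had 100, 25, 27 and 138 counts, and Nipal1, a magnesium transporter, had 92, 9, 104 and 448. The other named genes were Dhrs9, a retinol dehydrogenase, at 63, 24, 6 and 147 counts, Slc34a2, a phosphate transporter, at 51, 19, 32 and 227, and Tmem254c at 746, 269, 115 and 602.

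Some chaperones of the endoplasmic reticulum were called with diet, and none of their list was called with CCl4. Of 21 tested genes of the unfolded protein response, 10 were called higher with diet and 0 with CCl4, none was lower, and 9 were diet-specific, with medians of 0.98 and -0.17. Sdf2l1, a chaperone cofactor, had 138 and 879 counts in CD and HFD (2.57) and 265 and 258 in Oil and CCl4 (-0.32), a difference of 2.90 (2.55 to 3.28). Hyou1, a large chaperone, had 1884 and 6459 counts in CD and HFD (1.69) and 1593 and 1978 in Oil and CCl4 (0.03). Summed counts of the list were 66900 in CD, 148574 in HFD, 71450 in Oil and 71636 in CCl4, with HFD the high library, although CD and Oil differed over 2-fold for Sdf2l1 and Manf. The CCl4 median of this list changed sign with total reads as library size (0.06) and in the remaining CCl4 counts (0.25).

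The integrated stress response did not follow the chaperones. Among its 16 genes, 4 were higher and 3 lower with diet, and 4 were higher and 1 lower with CCl4, with medians of -0.08 and 0.26. Ddit3, the transcription factor CHOP, was diet-specific higher, at 62, 273, 109 and 165 counts in CD, HFD, Oil and CCl4 (2.02 and 0.31, but 1.12 and common higher in the remaining CCl4 counts), while Psat1, of serine synthesis, was CCl4-specific higher, at 25, 24, 17 and 110 (-0.13 and 2.29). In the heat shock list of 10 genes, Hspa1a, an inducible chaperone of the cytosol that shares reads with Hspa1b, was diet-specific higher, at 97 and 405 counts in CD and HFD (1.96) and 39 and 56 in Oil and CCl4 (0.23). Hspb1, a small heat shock protein, was CCl4-specific lower, at 1278 and 461 counts in Oil and CCl4 (-1.75), and the list's medians were 0.41 and -0.28, the latter -0.54 in the remaining CCl4 counts.

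Of 14 tested interferon-inducible genes, 5 were diet-specific higher, and 6 were called with neither injury. In all, 7 were higher with diet and 1 with CCl4, none lower, with medians of 1.04 and -0.03, the latter 0.19 with total reads as library size and 0.31 in the remaining CCl4 counts. Ifit1, an antiviral RNA-binding protein, had 71 and 345 counts in CD and HFD (2.17) and 83 and 51 in Oil and CCl4 (-0.96), a difference of 3.13 (2.53 to 3.85). Ifi44, diet-specific here, did not pass the test of the difference with total reads or in the remaining CCl4 counts. Cxcl10, a chemokine that interferon induces, had 41 and 148 counts in CD and HFD (1.72) and 33 and 32 in Oil and CCl4 (-0.31). Oas1a, a sensor of double-stranded RNA, was the gene called with CCl4, at 39 and 139 counts in Oil and CCl4 (1.503), without a difference past the test, and it was CCl4-specific with total reads and in the remaining CCl4 counts. Gbp10, close in sequence to Gbp11, had 22, 475, 29 and 13 counts in CD, HFD, Oil and CCl4.

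Of 26 tested PPARα targets, 15 were lower and 1 was higher with diet, and 2 were higher and 2 lower with CCl4, with medians of -1.19 and -0.25. The CCl4 median was -0.018 with total reads and -0.59 in the remaining CCl4 counts, where Acot1, Acaa1b and Pex11a were among the common lower genes beside Ehhadh. Ehhadh, an enzyme of peroxisomal fatty acid oxidation, had 161285 counts in CD, 6754 in HFD, 48808 in Oil and 38856 in CCl4, a log2 ratio of -4.66 with diet (-4.70 to -4.63) and -0.62 with CCl4 (-0.64 to -0.60). HFD was lowest and CD highest of the 4, and both CCl4-model libraries lay between. Acot1 and Acot2, acyl-CoA thioesterases with close copies, were diet-specific lower, and Acot2 had 2369, 226, 740 and 1667 counts (-3.46 and 0.88). Fgf21, a fasting hormone of liver that PPARα induces, had 691 and 73 counts in CD and HFD (-3.29) and 215 and 460 in Oil and CCl4 (0.80).

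Some targets departed from that pattern. Cd36, a fatty acid transporter, was the target that was higher with diet, at 541 and 2576 counts in CD and HFD (2.16) and 522 and 1042 in Oil and CCl4 (0.71). Cyp4a10 and Cyp4a14, fatty acid ω-hydroxylases with close copies, were common lower, and Cyp4a14 changed by -4.89 with diet and -1.66 with CCl4. Acot3 was higher with CCl4 (1.11) but had -0.57 in the remaining CCl4 counts. With total reads as library size Cyp4a31, Acot2, Fgf21 and G6pc were called higher with CCl4 as well as lower with diet, so their diet-specific class rests on the scaling.

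Igfbp1 and G6pc were other diet-specific lower genes. Igfbp1, an insulin-repressed binding protein for insulin-like growth factors, had 5316 and 596 counts in CD and HFD (-3.24, interval -3.37 to -3.12) and 2266 and 3742 in Oil and CCl4 (0.44, 0.36 to 0.51). G6pc, the glucose-6-phosphatase of glucose release, had 12625, 2934, 8164 and 17176 counts in CD, HFD, Oil and CCl4 (-2.19 and 0.79). Over 13 genes of glucose and glycogen metabolism, 3 were higher and 1 lower with diet and 2 were higher with CCl4, with medians of 0.07 and 0.48. Cpne5, a calcium-dependent membrane-binding protein, had 516, 1, 18 and 8 counts, and Btg3, an antiproliferative gene, had 248, 40, 136 and 235. In the remaining CCl4 counts Igfbp1 and Btg3 had ratios of 1.87 and 1.27 over Oil and would be opposite, and Ehhadh and Cpne5 had -1.28 and -2.48 and would be common lower.

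Of 11 tested lipid droplet genes, 2 were higher and 6 lower with diet and 2 were lower with CCl4, with medians of -1.62 and -0.68. The CCl4 median was -1.32 in the remaining CCl4 counts, where G0s2, Pnpla2 and Mgll were common lower. Cidea, a droplet-enlarging protein of brown fat and fatty liver, had 4 and 386 counts in CD and HFD (5.95, interval 5.14 to 8.39) and 9 and 5 in Oil and CCl4 (-0.87, -3.06 to 0.60), the largest difference among the named diet-specific genes, at 6.82 (5.23 to 10.15). Plin2, the main coat protein of liver droplets and a PPARα target, had 56306, 15017, 22002 and 30237 counts in CD, HFD, Oil and CCl4 (-1.99 and 0.17). Plin4, another coat protein, was opposite, with 532, 1451, 1106 and 325 (1.36 and -2.05). Cidec and Cidea, close relatives, moved apart with diet, and with CCl4 Cidec alone was called.

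The remaining diet-specific rises were spread over unrelated genes. Cyp21a1, a steroid 21-hydroxylase, had 38, 627, 138 and 85 counts in CD, HFD, Oil and CCl4 (3.89 and -0.97), and Themis, a T cell signalling protein, had 20, 327, 16 and 9 (3.82 and -0.96). Of 7 tested lymphocyte markers, 0 were called with either injury. Cd4 had 37, 65, 16 and 8 counts, with the same signs as Themis. Other T cell markers had fewer counts in HFD than in CD, namely Cd8a (25, 16, 11 and 5), Cd3d (6, 2, 6 and 8) and Cd3e (4, 1, 7 and 0). Cd3g had 6, 8, 11 and 3. The part of lymphocytes in the change of Themis was not tested. The 10 markers listed summed to 120, 132, 109 and 93 counts, with Cd4 the most abundant over all 4 libraries and Cd3e at 0 in CCl4 only, and the tested ones had medians of 0.20 and -0.93, the latter -0.074 in the remaining CCl4 counts. Obp2a, an odorant-binding protein, had 26, 360, 17 and 7 counts, Clec2h, a lectin, had 9, 167, 29 and 18, Adgrv1, an adhesion receptor, had 13, 389, 34 and 41, and 9030619P08Rik had 7, 225, 30 and 55.

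The mitosis list had the highest CCl4 median of all lists. All 22 tested genes of the list were called higher with CCl4 and 0 with diet, with medians of 0.72 with diet and 4.47 with CCl4, or 4.46 with a gene at 0 set to its bound. Summed counts were 266 in CD, 468 in HFD, 390 in Oil and 10288 in CCl4. The CCl4 library stood far above the other 3, in which these genes had few counts. Ccnb2, a cyclin that drives entry into mitosis, had 10 and 15 counts in CD and HFD (0.43, interval -0.75 to 1.82) and 18 and 976 in Oil and CCl4 (5.34, 4.80 to 6.23). Mki67, the proliferation marker Ki-67, had 18, 36, 22 and 929 counts in CD, HFD, Oil and CCl4 (0.85 and 5.002).

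Diet counts of this list were low. The test of the difference passed for 15 of the 22 genes, Cdk1, Plk1, Top2a and Kif20a among them, and not for 7, Ccnb1, Aurkb, Cenpe, Cenpf, Kif11, Ttk and Prc1. All 22 were still called higher in the remaining CCl4 counts, but Plk1, Aurka, Bub1b and Birc5 did not pass the test of the difference there, and with total reads Birc5 was common higher. Ccnb1 shows how wide the intervals were, with 1 and 6 counts in CD and HFD and 10 and 632 in Oil and CCl4, whose difference of -4.09 had an interval of -6.43 to 2.47. Knstrn, Cdca3 and Ckap2, of the mitotic spindle and division, were also among the leading CCl4-specific genes, with 795, 1086 and 344 counts in CCl4 and 12, 24 and 7 in Oil, although Ckap2 did not pass the test of the difference in the remaining CCl4 counts. Of 19 tested DNA replication genes, 1 was higher with diet and 9 with CCl4, with medians of 0.40 and 1.00. Tk1, a thymidine kinase, was common higher, at 72 and 184 counts in CD and HFD (1.25) and 250 and 613 in Oil and CCl4 (1.001), but its CCl4 call was lost with DESeq2 size factors and in the remaining CCl4 counts (0.25). Gins2, of the replicative helicase, had 6, 7, 2 and 121 counts.

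Promoters were searched for 11 motifs, which the contrast did not use. RefSeq promoters, from 250 bases before to 50 after the gene start (300 bases), were found for 11055 of the tested genes, and each motif was searched on both strands, where some motifs can overlap, such as CCAAT and TTTGAA by 1 base. The letters CCAAT are the core of the box bound by NF-Y. They were in the promoters of 16 of 18 mitosis genes (88.9%) and of 43.0% of all tested genes. Promoters of 7 of 9 genes of the Dbp clock phase (77.8%) and 4 of 5 of the Bmal1 phase held them too. A share above that of all tested genes was thus not particular to the mitosis list. TTTGAA, a form of the cell cycle homology region, was in 13 of 18 (72.2%), in 14.9% of all, in none of those clock promoters and in 3 of 6 of the male-biased list, of which 2 held CCAAT. The other motifs were in 8 (CCACG and TGANNNNGC), 3 (TTCGAA), 2 (TGACCT), 1 (CACGTG, TGACGTCA and GGGACTTTC) or 0 (TGACTCA and TTCCNGGAA) of the 18 mitosis promoters. Their shares of all tested genes were 50.1% (CCACG), 47.8% (TGANNNNGC), 2.32% (TTCGAA), 15.8% (TGACCT), 11.4% (CACGTG), 3.38% (TGACGTCA), 0.47% (GGGACTTTC), 4.84% (TGACTCA) and 1.55% (TTCCNGGAA). Among the CCl4-specific higher genes the shares of CCAAT and TTTGAA were 47.3% and 22.6%. The shares per list and the promoters shown were chosen after the values were seen, and a match is a description of letters, not a bound site. The promoters of Cdc20, an activator of the anaphase-promoting complex, and of Ccnb2 are shown because both hold both motifs and their genes were CCl4-specific higher, 5' to 3', with CCAAT and TTTGAA in capitals. They lie on the minus strand of GRCm38.p6 at chr4:118437294-118437593 (Cdc20) and chr9:70421505-70421804 (Ccnb2).
Cdc20: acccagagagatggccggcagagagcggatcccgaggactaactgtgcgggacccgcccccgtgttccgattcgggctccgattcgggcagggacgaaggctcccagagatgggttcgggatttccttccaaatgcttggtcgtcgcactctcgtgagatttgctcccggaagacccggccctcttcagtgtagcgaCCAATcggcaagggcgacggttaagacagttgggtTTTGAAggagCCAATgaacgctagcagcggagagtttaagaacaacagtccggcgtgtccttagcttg
Ccnb2: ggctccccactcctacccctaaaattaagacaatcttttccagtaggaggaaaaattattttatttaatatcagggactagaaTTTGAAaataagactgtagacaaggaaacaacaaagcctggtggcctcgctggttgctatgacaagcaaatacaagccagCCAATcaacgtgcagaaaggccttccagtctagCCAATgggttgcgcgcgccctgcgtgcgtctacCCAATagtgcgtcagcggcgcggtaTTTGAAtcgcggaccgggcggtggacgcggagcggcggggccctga

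Of 12 tested pericentral hepatocyte genes, expressed where CCl4 is activated, 5 were higher and 2 lower with diet, and 6 were lower with CCl4 and 0 higher, with medians of 0.67 and -0.96. Signs were the same with both injuries for 5 genes, and Rhbg and Slc13a3 were in an opposite class, which Slc13a3 lost with total reads and in the remaining CCl4 counts. Slc1a2, a glutamate transporter of the cells around the central vein, had 3150 counts in CD, 4544 in HFD, 3513 in Oil and 6 in CCl4, or 0.44 with diet (0.38 to 0.51) and -9.03 with CCl4 (-10.93 to -8.36). Glul, the glutamine synthetase of the same cells, had 17991, 25793, 14862 and 1962 counts (0.44 and -3.21). Cyp2e1 had 127881, 174607, 151340 and 39104 (0.37 and -2.24). For all 3 genes the CCl4 library alone was far below the others.

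Not every pericentral gene followed them. Lgr5, a receptor that strengthens Wnt signals, was diet-specific higher, at 37, 175, 85 and 54 counts in CD, HFD, Oil and CCl4 (2.10 and -0.91), and Axin2, a Wnt target, was diet-specific lower, at 334, 131, 190 and 367 (-1.42 and 0.66). Rhbg, an ammonium transporter, was higher with diet and lower with CCl4, at 75, 175, 200 and 86 (1.12 and -1.48). Of 15 drug-metabolizing genes, 4 were higher and 1 lower with diet, and 2 were higher and 4 lower with CCl4 (medians 0.43 and -0.54, the latter -0.88 in the remaining CCl4 counts). Cyp2b10, a target of the xenobiotic receptor CAR with close copies, had 0, 2, 4 and 421 counts.

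The leading CCl4-specific falls also included genes outside the pericentral list. Susd4, a complement regulator, had 364, 483, 238 and 8 counts in CD, HFD, Oil and CCl4 (0.32 and -4.84), and Capn8, a protease, had 81, 146, 74 and 4 (0.75 and -3.90). Gm2083, a Mup-like gene, had 123, 167, 351 and 0, at least 143-fold lower with CCl4, and E030018B13Rik had 25, 10, 148 and 1. The Mup genes in this class were led by Mup11, with 160582, 304718, 220224 and 107 counts, Mup7, with 142035, 208683, 153582 and 370, and Mup8, with 534, 899, 523 and 37. Gm10052, CCl4-specific higher by the rule, had 419, 325, 0 and 54 counts, so its rise started from an Oil library at 0 and ended below both diet libraries.

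Of 16 tested NRF2 targets, genes of antioxidant defence, 3 were CCl4-specific higher, and 4 more were called with CCl4 alone without passing the test of the difference. In all, 1 was higher with diet and 8 with CCl4, none lower, with medians of 0.35 and 1.15. Nqo1, Gclc, Gsta2 and Gstm1 were not called in the remaining CCl4 counts, where the median was 0.54. Gstm3, a glutathione transferase, had 132, 242, 304 and 11923 counts in CD, HFD, Oil and CCl4 (0.78 and 4.998), a difference of -4.22 (-4.57 to -3.85). Gstm1 had 15276, 17471, 26013 and 92895 (0.11 and 1.55). Nqo1, a quinone reductase, was called with CCl4 alone, at 93 and 256 counts in Oil and CCl4 (1.16), but its difference of -0.98 (-1.64 to -0.34) did not pass.

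Of 16 genes of fatty acid synthesis, 2 were higher and 3 lower with diet and 6 were higher with CCl4, with medians of -0.51 and 0.81, the latter 0.52 in the remaining CCl4 counts. Fasn, the fatty acid synthase, had 1408, 1714, 1506 and 6211 counts in CD, HFD, Oil and CCl4 (0.20 and 1.75), and Acaca, the carboxylase that feeds it, had 1322, 1041, 709 and 3026 (-0.43 and 1.80). Both were CCl4-specific higher, and both had their highest count in CCl4 with the other 3 libraries below. Thrsp, a lipogenic regulator, was common higher, at 84, 1204, 347 and 971 (3.73 and 1.19), and Elovl5, an elongase of polyunsaturated fatty acids, was diet-specific lower, at 29860, 6287, 15995 and 18625 (-2.33 and -0.07).

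Of 22 genes of cholesterol synthesis, 2 were higher and 1 lower with diet and 7 were higher with CCl4, with medians of -0.01 and 0.71. In the list of 12 bile acid genes, 2 were higher and 1 lower with diet and 4 were lower with CCl4, with medians of 0.12 and -0.46. Cyp7a1, the rate-limiting enzyme of bile acid synthesis, was opposite, at 339, 781, 1387 and 605 counts in CD, HFD, Oil and CCl4 (1.12 and -1.48), unlike Cyp8b1.

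Of 17 acute phase genes, 1 was higher with diet and 4 with CCl4 (medians -0.16 and 0.24). Saa1, Saa2, Orm1, Hpx, Apcs and Serpina3n were called as well in the remaining CCl4 counts, where the median was 1.14. Lcn2, an iron-trapping protein of inflammation, had 712, 1442, 208 and 2714 counts in CD, HFD, Oil and CCl4 (0.93 and 3.41), and was common higher with total reads. Orm3, an orosomucoid with close copies, was diet-specific higher, at 16, 169, 52 and 39, but common higher in the remaining CCl4 counts. Of 6 tested bile duct markers, 0 were called with diet and 4 were higher with CCl4 (medians -0.15 and 1.17), and the 7 listed summed to 648, 874, 903 and 3380 counts, with Spp1 (osteopontin) the most abundant and Cftr at 0 in CD and HFD. Spp1 had 398, 670, 582 and 2597 counts (0.67 and 1.87), and Sox9, a transcription factor of duct cells, had 111, 109, 161 and 440. Sox9 and Krt7 were not called in the remaining CCl4 counts, where the duct median was 0.69.

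Endothelial and blood cell markers gave a mixed picture. Of 9 sinusoidal endothelial markers, 1 was higher with diet and 2 were lower with CCl4, with medians of -0.04 and -0.68, and the list summed to 6096, 6431, 3426 and 2480 counts in CD, HFD, Oil and CCl4, with none at 0, Stab1 the most abundant over all 4 libraries and Stab2 in CD and HFD. Both CCl4-model libraries were below both diet-model libraries. Both lower calls, of Kdr and Oit3, were lost in the remaining CCl4 counts (median -0.11). Of 6 tested neutrophil markers, 0 were called with either injury (medians 0.57 and 0.31), and the 10 listed summed to 257, 289, 241 and 343, with Cxcr2 the most abundant and Mpo and Ltf at 0 in CD. S100a8, S100a9 and Ngp were called higher in the remaining CCl4 counts, where the median was 1.435. Of 5 tested red blood cell genes, 3 were lower with diet and 2 with CCl4 (medians -1.05 and -0.96, the latter 1.42 in the remaining CCl4 counts). The 7 listed summed to 7241, 5109, 8312 and 5460, with Hba-a1 the most abundant except in HFD, where Alas2 was, and Hbb-b1 at 0 in CD, HFD and CCl4. In the remaining CCl4 counts Hbb-bt and Hba-a2, globins with close copies, were higher than in Oil, by 1.42 and 1.14, so their common fall did not hold there. With total reads Hbb-bt lost its diet call and Hba-a2 its CCl4 call, from main ratios near the threshold (-1.05 and -1.21).

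Markers of other tissue were low. Of 8 pancreatic acinar markers, 4 were listed in the files and 1 was tested, Cela1, which was diet-specific higher at 102, 314, 146 and 123 counts in CD, HFD, Oil and CCl4 (1.52 and -0.53), while the defining enzymes Pnlip and Ctrb1 were at 0 in CD, HFD and CCl4 and 1 in Oil, and the list summed to 110, 316, 157 and 127. Of 6 skeletal muscle markers, 4 were listed and summed to 12, 4, 17 and 14 counts, with Mylpf the most abundant and the only tested gene (-1.06 and -0.61, not called), and with Tnni2 at 0 in CD, HFD and Oil. For adipocytes, 4 of 7 markers were tested, 2 of them higher with diet and 1 lower with CCl4, with medians of 1.86 and -1.21.

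Hepatocyte, oxidative phosphorylation and reference genes had few or no calls. Of 12 hepatocyte genes, 0 were called with diet and 1 was higher with CCl4 (medians -0.07 and 0.02), namely Trf, the transferrin gene, at 204081 and 567485 counts in Oil and CCl4 (1.19). None of 18 oxidative phosphorylation genes (medians -0.16 and -0.10) and none of 9 reference genes (-0.31 and 0.14) was called with either injury. The CCl4 medians in the remaining counts were -0.355 for the hepatocyte list and -0.53 for the oxidative phosphorylation list. Of 11 immediate early genes, 2 were higher and 1 lower with each injury (0.07 and -0.01), and Nr4a1, an orphan nuclear receptor, was common lower, at 180, 83, 181 and 30 counts in CD, HFD, Oil and CCl4. Of 11 iron genes, 1 was lower with diet and 1 higher with CCl4, beside 2.95% and 5.93% of all tested genes. Their medians were -0.35 and 0.16, the latter -0.25 in the remaining CCl4 counts. The genes called were Id1, a BMP target, at 204 and 51 counts in CD and HFD, and Hamp2, a hepcidin gene, at 138 and 768 in Oil and CCl4. Hamp2 was not called in the remaining CCl4 counts, and Id1 was opposite with total reads.

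**Figure D3:**
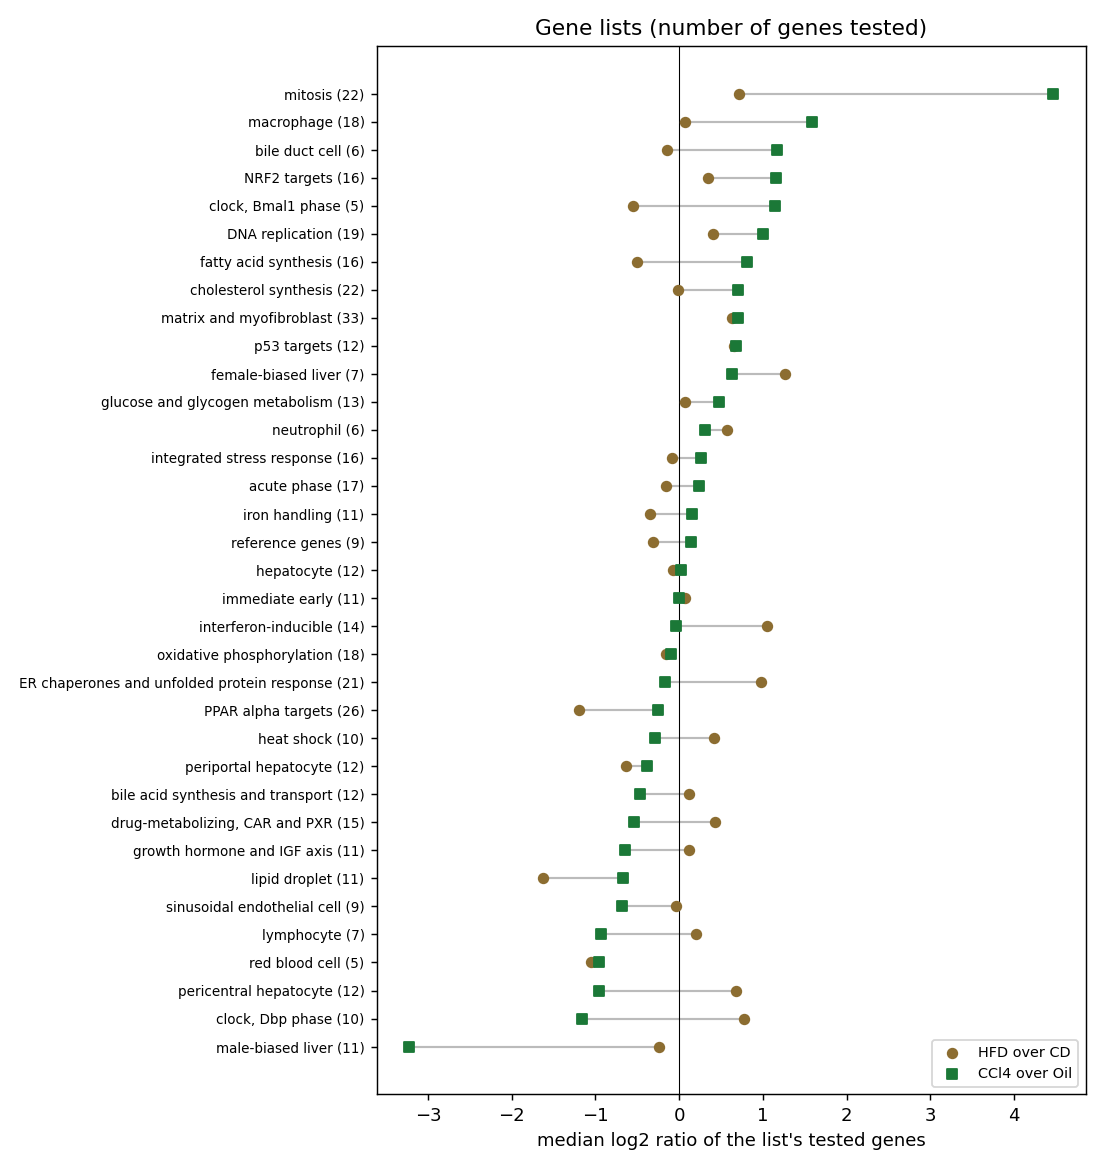
Median log2 ratio of HFD over CD (circles) and of CCl4 over Oil (squares) for each gene list with at least 5 tested genes, ordered by the median with CCl4, with the number of tested genes in brackets. Mitosis lies far to the right with CCl4 alone (4.47 against 0.72), male-biased genes far to the left with CCl4 alone (-3.22 against -0.24), and the lists of the clock genes have their medians on opposite sides of 0.

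Clock promoters were examined for the E-box CACGTG, which the Bmal1 complex binds. It was in the promoters of 4 of 9 genes of the Dbp phase (44.4%), in 1 of 5 of the Bmal1 phase and in 11.4% of all tested genes. Among the genes higher with diet and lower with CCl4 the share was 10.3%, near that of all genes. Ciart had the largest opposite changes of the Dbp-phase list by the smaller absolute ratio of each gene, although Dbp fell more with CCl4. Bhlhe41, a repressor of the clock, was CCl4-specific lower at 80 and 29 counts in Oil and CCl4 (-1.68). The promoters of Ciart and Bhlhe41 are shown with CACGTG in capitals, 5' to 3'. They lie on the minus strand of GRCm38.p6 at chr3:95882179-95882478 (Ciart) and chr6:145865371-145865670 (Bhlhe41).
Ciart: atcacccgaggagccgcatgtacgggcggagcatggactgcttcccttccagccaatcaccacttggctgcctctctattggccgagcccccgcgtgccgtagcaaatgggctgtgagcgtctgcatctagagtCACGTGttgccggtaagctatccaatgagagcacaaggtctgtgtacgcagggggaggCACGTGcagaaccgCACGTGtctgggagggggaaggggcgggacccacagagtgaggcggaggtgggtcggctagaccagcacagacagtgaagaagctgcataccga
Bhlhe41: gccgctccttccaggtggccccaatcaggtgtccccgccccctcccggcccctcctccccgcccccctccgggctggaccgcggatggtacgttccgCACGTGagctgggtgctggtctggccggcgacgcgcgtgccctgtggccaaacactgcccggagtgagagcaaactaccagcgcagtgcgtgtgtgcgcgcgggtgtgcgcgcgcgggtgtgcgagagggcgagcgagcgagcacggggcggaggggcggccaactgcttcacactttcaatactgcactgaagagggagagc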

How the data were processed

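RNA from mouse liver was measured in 4 libraries, CD, HFD, Oil and CCl4, with 1 separate library per condition. The authors deposited an expected count per gene, an estimate of its reads in which reads shared by several genes are split, without normalization. The FPKM values were also deposited by the authors, as counts scaled by transcript length and library size, and served as an alternative. Per the labels the processing used HISAT, Bowtie2 and RSEM with the mouse build mm9, with no versions given. The authors' comparison tables hold expression values, ratios and p-values of their own tests. From them the pooled CCl4 column alone was used, as an alternative, and the other 7 expression columns were not. It appears to be a sum of expected counts that the authors deposited over several CCl4 libraries, since it totals 2.97 times the CCl4 library's counts and lies below them for 24 genes, by 0.99 at most. The JT003 libraries were left out, as they are in no comparison here.

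Expected counts were rounded, and library sizes scaled by TMM factors over the 4 libraries, 0.975 in CD, 1.06 in HFD, 0.909 in Oil and 1.07 in CCl4 (edgeR 4.0.16, R 4.3.3). Tests covered genes reaching 10 counts in any library, which left out 3998. Tests were run with scipy 1.17.1, numpy 2.4.6 and pandas 2.3.3 in Python 3.11.15, after being tested on simulated data, and plots drawn with matplotlib 3.10.9. A library at 0 was set to 3 counts for a lower bound on a fold. A RefSeq gene table held 17911 of the 17950 gene identifiers, and promoters came from RefSeq with build GRCm38.p6, matched by gene identifier.

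Among genes with at least 100 counts in their highest library, those named were the 12 genes of each common and each opposite class with the largest smaller absolute log2 ratio and the 8 of each specific class with the largest absolute difference. Members of 38 gene lists were named at any count, and some are not reported here. Members and lists were chosen with earlier results of these data known. Alternatives were total reads, size factors of DESeq2 1.42.0, no filter or 100 counts, a prior count of 0.5, a log2 threshold of 2, an adjusted p under 0.05 in the same exact binomial test with Benjamini-Hochberg adjustment, log2 of the FPKM plus 1 by size alone, edgeR's exact test with an assumed coefficient of variation of 0.2 or 0.4 and the difference by size alone, Spearman correlation and the remaining pooled CCl4 counts.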

Additional observations from a re-analysis of the deposited data

How the results depend on the processing

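No paired analysis was possible because each condition had 1 separate library and no mice were matched between conditions. The spread between mice cannot be estimated from these data. With an assumed coefficient of variation of 0.2, the common higher, common lower, opposite higher with diet, opposite lower with diet, diet-specific and CCl4-specific genes numbered 10, 10, 15, 2, 146 and 304, and with 0.4 they numbered 1, 1, 2, 0, 7 and 59. Of the diet-specific and CCl4-specific genes, 96 and 155 with 0.2, and 2 and 24 with 0.4, were in the same class of the main analysis. A log2 threshold of 2 gave 10, 13, 15, 4, 98 and 174. With total reads as library size 129 genes were common higher, all 83 of the main analysis among them, and an adjusted p under 0.05 in the same exact binomial test with Benjamini-Hochberg adjustment gave 134. FPKM by size alone gave 29 common lower, 34 opposite higher with diet and 23 opposite lower with diet. The other class counts, under these settings, DESeq2 size factors, no filter, a minimum of 100 counts, a prior count of 0.5 and without the Mup genes (added after the data were seen), were within 1.5 times their main values.

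Total reads moved the median log2 ratio of all genes to 0.12 with diet and 0.24 with CCl4, and the share of higher calls from 55.1% to 65.4% (632 higher and 334 lower) with diet and from 66.3% to 82.0% (1242 and 273) with CCl4. With the remaining CCl4 counts, which were set against the same Oil library, 127 genes were common lower, 63 of the main 69 among them, the common higher class kept 63 of 83, the opposite classes 41 of 54 and 25 of 37, the diet-specific 263 of 381 and the CCl4-specific 325 of 495, and the correlation across genes was 0.176. There the ratio of CCl4 over Oil kept its sign for 82 of 83 common higher, 65 of 69 common lower, 48 of 54 opposite higher with diet and 36 of 37 opposite lower with diet genes. It reversed for Cyp17a1 (0.044), Acot3 (-0.572), Hbb-bt (1.416), Hba-a2 (1.137), Hbb-bs (1.523), Mt1 (0.757), Mt2 (1.143), Scara5 (0.798), C4a (0.436), Tgtp1 (0.328), Rnu3b4 (0.1) and Gm28042 (-0.063), and the cause was not tested. Of the 12 or 8 named genes per class, all kept their class with DESeq2 size factors and a prior count of 0.5. With total reads 4 of 8 diet-specific lower genes kept it, and with the remaining CCl4 counts 11 of 12 common lower, 4 of 8 diet-specific lower and 6 of 8 CCl4-specific higher genes did, the other classes keeping all of theirs. Some genes with few counts in the diet libraries, such as Ccnb1, did not pass the test of the difference.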
